A study of Mus musculus with 16 samples.

Results

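The cytochrome P450 genes of families 1 to 4 were taken as every gene symbol made of Cyp, a digit from 1 to 4, a subfamily letter and a number. Among the 22396 gene symbols that both tables list, 80 met this rule, with 83 transcripts. Family 1 had 3 of them, family 2 had 48, family 3 had 9 and family 4 had 20. In the sorted colon cells, 25 of the 80 reached a mean of 1 TPM in at least 1 of the 4 groups and are described with values, and 55 did not. The TPM of these genes came mostly from a few genes of the Cyp2c and Cyp2d subfamilies, and Cyp2c55 had the highest mean in all 4 groups. After injury by dextran sulfate sodium (DSS), 5 genes were counted as lower than on water in the controls (8.33% of all genes were). In the mice labelled knockout 12 were (9.07% of all). Counted means no overlap of the mice and log2 means at least 1 apart. These genes lie in the Cyp2c, Cyp2d, Cyp2f, Cyp2s, Cyp4f and Cyp4v subfamilies. None was counted as higher, but Cyp4f40 was higher without overlap in both genotypes (10.6% and 17.4% of all genes were). By limma no P450 gene was called different between the genotypes in either treatment. At an unadjusted p under 0.05, 4 were lower after DSS (1.21% of all genes were), and 1 to 6 with a single mouse left out. On water none had such a p (5.28% of all genes did, in either direction).

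Cytochromes P450 are haem enzymes of the endoplasmic reticulum that insert an atom of oxygen into a substrate, with electrons passed on by P450 oxidoreductase and, for some of them, cytochrome b5. In the gut wall they oxidise drugs, plant compounds and fatty acids taken up from the lumen. Families Cyp1 to Cyp3 are best known for foreign compounds and are controlled by the aryl hydrocarbon receptor, the pregnane X receptor (Nr1i2) and the constitutive androstane receptor (Nr1i3), while Cyp4 enzymes hydroxylate the end of fatty acid and leukotriene chains.

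Bulk RNA was sequenced from EpCAM+ cells, that is epithelial cells, sorted from the distal colon of 16 adult mice. All carried loxP-flanked alleles of Tnfrsf1b, the gene of TNF receptor 2 (Tnfr2-f/f). The controls carried nothing further, and the mice labelled knockout (here labelled knockouts) also carried Vil1::Cre, in which the villin promoter drives Cre recombinase in intestinal epithelium only, so that other cells keep the gene. The groups were 4 controls and 5 labelled knockouts given water, and 3 controls and 4 labelled knockouts given 3% DSS for 6 days, all dissected on day 12 by the sample labels. The paper instead gives a slightly higher DSS concentration and says that the uninjured mice were taken at the start, and that cells of DSS-treated mice came from injured regions. The 7 mice given DSS were females, 2 from cage c and 5 from cage d. On water the 4 males shared cage a and the 5 females cage b, so cage and sex cannot be told apart there, and because no cage held both treatments, cage and treatment cannot be told apart either.

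The values are TPM, in which kallisto's estimate of the reads of a transcript is divided by its length and scaled to a fixed total, so levels of different genes can be compared. The listed transcripts, which are principal isoforms only, added up to between 487469 and 861109 TPM per mouse, and TPM keeps no read count, so the depth of a library cannot be read from it. The tables had been scaled separately. For levels across them, all 16 libraries were rescaled once by median-of-ratios factors (0.905 to 1.24), and every TPM below is rescaled unless called deposited. The 8 epithelial marker genes summed to 3972 to 5366 TPM in the water controls and 3313 to 4609 in the DSS controls, and none was at 0. Leukocyte markers were far from equal: the 10 of them summed to 1651 to 10113 TPM in the water controls and 4497 to 15909 in the water labelled knockouts, against 19.1 to 96.1 and 31.4 to 411 after DSS. The 5 neutrophil markers summed to 11.4 to 27.2 TPM on water and 36.9 to 1612 after DSS, through S100a8 and S100a9. Csf3r was at 1.57 to 4.704 TPM on water and 0.493 to 9.26 after DSS, and within the labelled knockouts Mmp9 was lower after DSS than on water. The 6 surface colonocyte markers summed to 789.5 to 1378 and 721 to 1205 TPM on water and to 401 to 643 and 374 to 827 after DSS. Goblet and deep crypt secretory markers (6 genes) summed to 3186 to 4704 and 4764 to 5730.4 TPM on water and to 1951 to 3914 and 1518 to 1947 after DSS, in the same order of genotypes. The 7 stroma markers summed to 632 to 970.03 and 321 to 922 TPM on water and to 110.4 to 396 and 104 to 471.1 after DSS, and the 4 liver cell markers to 34.1 to 55.2 and 36.2 to 63.95 on water and to 17.1 to 37.9 and 13.2 to 20.7 after DSS. The part of these cell types in the differences between DSS and water was not tested. In bulk RNA, fewer cells of a type and less RNA per cell cannot be told apart. Tnfrsf1b itself was at 12.2 to 17.0 TPM in the water controls and 9.82 to 16.4 in the water libraries labelled knockout, and at 10.8 to 19.3 and 11.3 to 22.7 after DSS, so the groups overlapped. Its TPM are taken over the whole transcript and do not single out the loxP-flanked exon.

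The 80 genes together made up 485 to 791 TPM in the water controls (mean 580.5 ± 142.5, SD, n = 4) and 448 to 686 in the water labelled knockouts (527 ± 95.05, n = 5). After DSS they made up 261 to 432 TPM in the controls (342 ± 86.0, n = 3) and 167 to 507 in the labelled knockouts (301 ± 149, n = 4). After rescaling the DSS controls lay below all water controls, whereas DSS knockout replicate 2 lay within the range of its water group. As a share of all listed TPM the controls overlapped, with 0.0768% in DSS control replicate 1 and 0.0679% in water control replicate 4. Per mouse, the share of this sum from the 15 Cyp2c genes averaged 47.0% in the water controls and 45.1% in the DSS controls, whereas that of the 8 Cyp2d genes averaged 26.2% and 17.2%. For labelled knockouts the Cyp2d share averaged 26.4% on water and 10.6% after DSS. The share of the 9 Cyp4f genes averaged 12.3% in the water controls, 19.8% in the DSS controls, 15.7% in the water labelled knockouts and 20.6% in the DSS labelled knockouts.

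**Figure D1:**
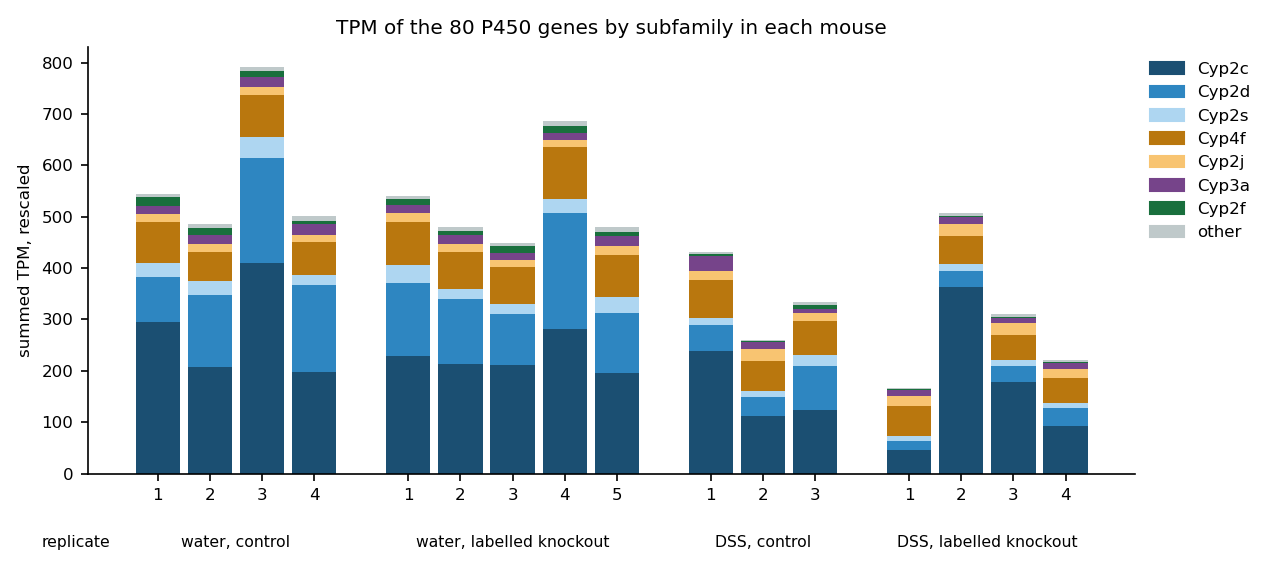
Stacked bars give, for each of the 16 mice, the summed TPM of the 80 P450 genes (vertical axis, rescaled TPM) split by subfamily, with mice ordered by group and replicate number. The Cyp2d block averaged 151 TPM in the water controls and 28.8 TPM in the DSS labelled knockouts, and the tallest DSS bar, at 507 TPM, was mostly Cyp2c.

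Of the 55 genes under a mean of 1 TPM, 29 were listed at 0 in all mice and 26 were above 0 in at least 1. Both Cyp1a genes, the classical targets of the aryl hydrocarbon receptor, belonged to these: Cyp1a1 was above 0 in 4 of 16 mice, with at most 0.1799 TPM as deposited, and Cyp1a2 was at 0 throughout. Cyp1b1 reached 0.321 TPM as deposited. Enzymes that dominate in liver were listed at or near 0. Cyp2e1, the ethanol-oxidising P450, was listed at 0 throughout, as were Cyp2c29, Cyp2c37, Cyp2c50, Cyp2c54, Cyp3a25, Cyp4a10 and Cyp4a14. Cyp3a11, the main Cyp3a of mouse liver, had at most 0.185 TPM as deposited, and Cyp2b10, the standard target of the constitutive androstane receptor, was above 0 in 1 mouse only, at 0.613. Without read counts such a 0 can be a failed estimate, in particular where the listed transcript shares nearly all of its 31-base windows with other isoforms of its gene, as for Cyp2c29, Cyp2c50, Cyp3a25 and Cyp4a10. Of the 9 Cyp3a genes only Cyp3a13 was named by the rule. The highest single value among the 55 was 2.01 TPM as deposited, in Cyp2r1, a vitamin D 25-hydroxylase that was above 0 in 5 mice.

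Many of these genes lie in tandem clusters of close copies. On GRCm38, the 4 named Cyp2c genes lie on chromosome 19, the 7 named Cyp2d genes on chromosome 15 and 5 of the 6 named Cyp4f genes on chromosome 17. Copies share reads, which kallisto divides by its own estimate. The share of 31-base windows of the listed transcript that occur in no other gene's transcript of the GENCODE M21 annotation was 99.7% for Cyp3a13, 96.98% for Cyp2j6, 96.6% for Cyp2c55 and 91.5% for Cyp4f40, and it took in every window of Cyp2s1. It was 74.7% for Cyp2d34, 63.98% for Cyp2d12, 53.6% for Cyp2d9, 45.6% for Cyp2d10, 37.96% for Cyp2c68 and 34.1% for Cyp2c69. Of the 25 named genes, 10 had over 90% of such windows and 3 had under 50%. Values of Cyp2c68 and Cyp2c69 (which share most with Cyp2c40 and Cyp2c67), of Cyp2d9, Cyp2d10 and Cyp2d12 (with Cyp2d11 and each other), of Cyp2c65 (with Cyp2c66) and of Cyp4f16 (with Cyp4f37) are therefore uncertain in how the reads were split. Windows shared with other isoforms of the same gene are a further limit, since only principal isoforms are listed. Their share was 100% for Cyp2d10, 99.9% for Cyp2d12, 99.2% for Cyp4f13, 99.1% for Cyp2s1, 99.0% for Cyp2d22 and 90.3% for Cyp2d34. It was 0% for Cyp2c55, Cyp2c68 and Cyp4v3. Where this share is high, a lower listed transcript and a lower gene cannot be told apart.

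How close the copies are in a single stretch is shown by 60 coding bases around the codon of the cysteine that holds the haem iron. They are taken from the listed transcripts of GENCODE M21 on GRCm38. Capitals mark bases that differ from Cyp2d34 at the same place of the stretch. Read 5′ to 3′ on the coding strand, the stretches are:
Cyp2d34: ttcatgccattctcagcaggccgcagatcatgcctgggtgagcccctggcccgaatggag
Cyp2d10: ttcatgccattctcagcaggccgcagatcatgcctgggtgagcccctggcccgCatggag
Cyp2d9: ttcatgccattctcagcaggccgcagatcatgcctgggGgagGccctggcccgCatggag
Cyp2d12: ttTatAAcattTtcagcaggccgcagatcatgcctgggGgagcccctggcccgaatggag
Cyp2c68: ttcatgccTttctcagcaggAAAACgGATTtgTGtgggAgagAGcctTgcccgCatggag
Cyp2c69: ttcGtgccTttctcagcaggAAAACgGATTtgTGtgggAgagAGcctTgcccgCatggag
Cyp2c55: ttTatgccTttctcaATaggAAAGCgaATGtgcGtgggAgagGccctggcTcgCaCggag
Cyp2d10 differed from Cyp2d34 at 1 of 60 bases, Cyp2d9 at 3 and Cyp2d12 at 5. Cyp2c68 and Cyp2c69 differed from it at 17 and 18, and Cyp2c55 also at 18. A read of 75 bases over this stretch thus meets few bases that separate the Cyp2d genes. The stretch does not stand for whole transcripts. Cyp2d22 and Cyp2d26, which are not printed, each differed from Cyp2d34 at 2 bases here. Of all their windows, 89.9% and 83.7% occur in no other gene.

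**Figure D2:**
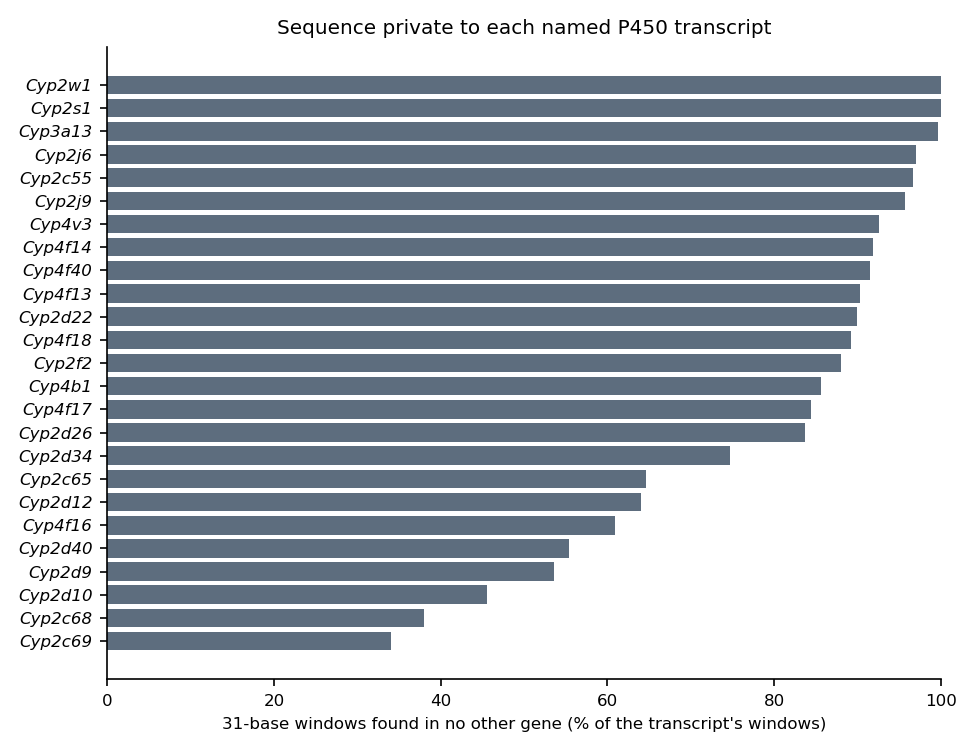
Bars give, for each of the 25 named P450 genes, the percentage of its listed transcript's 31-base windows that occur in no other gene (horizontal axis, %; for genes with several listed transcripts, the lowest). Cyp2c69, Cyp2c68 and Cyp2d10 lie under 50%, and the bars of Cyp2s1 and Cyp2w1 are full.

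RefSeq promoters (GRCm38.p6, the 250 bases before each start) covered 65 of the 80 genes and 21 of the 25 named genes. Cyp2d12, Cyp2d22, Cyp2d34 and Cyp4f17 have no entry. On both strands, 5 short motifs were searched: GCGTG, the core bound by the aryl hydrocarbon receptor with its partner, AGGTCA, a nuclear receptor half-site, CAAAGTCCA, the core of an HNF4 site, GTTAAT, an HNF1 half-site, and the TATA box TATAAA. In the following 5 promoters, capitals mark matches to any of the 5, which do not overlap one another here. The promoters were chosen as the highest member (Cyp2c55), a neighbour with the HNF4 letters (Cyp2c65), a gene lower after DSS (Cyp2c68), a gene higher after DSS (Cyp4f40) and the near-absent aryl hydrocarbon receptor target (Cyp1a1). They are written 5′ to 3′ on the gene's strand, and span chr19:39006769-39007018 (plus), chr19:39060756-39061005 (plus), chr19:39741102-39741351 (minus), chr17:32658636-32658885 (plus) and chr9:57697363-57697612 (plus):
Cyp2c55: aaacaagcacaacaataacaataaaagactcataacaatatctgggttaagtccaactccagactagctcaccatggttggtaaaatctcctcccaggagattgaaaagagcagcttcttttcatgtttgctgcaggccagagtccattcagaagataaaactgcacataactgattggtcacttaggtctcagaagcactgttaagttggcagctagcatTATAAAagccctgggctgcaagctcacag
Cyp2c65: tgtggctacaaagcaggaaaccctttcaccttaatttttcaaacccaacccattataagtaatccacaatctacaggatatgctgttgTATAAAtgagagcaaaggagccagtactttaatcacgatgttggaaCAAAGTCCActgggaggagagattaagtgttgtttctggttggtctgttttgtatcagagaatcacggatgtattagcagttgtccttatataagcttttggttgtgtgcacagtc
Cyp2c68: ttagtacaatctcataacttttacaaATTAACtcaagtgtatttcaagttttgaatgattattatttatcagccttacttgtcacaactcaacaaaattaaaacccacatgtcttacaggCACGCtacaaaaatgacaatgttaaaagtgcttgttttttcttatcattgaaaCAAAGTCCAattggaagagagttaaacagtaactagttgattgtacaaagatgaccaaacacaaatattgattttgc
Cyp4f40: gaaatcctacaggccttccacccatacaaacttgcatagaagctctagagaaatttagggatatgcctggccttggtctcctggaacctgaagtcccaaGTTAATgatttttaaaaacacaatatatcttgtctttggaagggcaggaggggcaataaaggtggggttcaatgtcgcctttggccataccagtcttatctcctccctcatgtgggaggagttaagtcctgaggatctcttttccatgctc
Cyp1a1: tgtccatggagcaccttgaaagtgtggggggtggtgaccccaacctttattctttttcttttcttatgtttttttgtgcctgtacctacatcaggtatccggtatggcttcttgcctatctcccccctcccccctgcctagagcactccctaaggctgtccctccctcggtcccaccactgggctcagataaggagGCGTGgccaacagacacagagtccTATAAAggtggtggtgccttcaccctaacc
Cyp2c55 had a TATA box 29 bases before its start and no other match, and Cyp1a1 had one 30 bases before. The HNF1 half-site stood 151 bases before the start of Cyp4f40 that is shown (a later start of this gene, also in the table, had no match) and 224 before that of Cyp2c68. The HNF4 core stood 116 bases before the start of Cyp2c65, 77 before that of Cyp2c68 and 75 before that of Cyp2c69. Cyp2c68 and Cyp2c69 were identical at 91.3% of the aligned promoter positions, so these are not independent matches. Among the 32851 promoters of the table, 0.384% held the HNF4 core, against 10 of the 72 promoters of P450 genes (13.9%), which belong to Cyp2c40, Cyp2c65, Cyp2c67, Cyp2c68, Cyp2c69, Cyp2c70, Cyp3a11, Cyp3a16, Cyp3a41a and Cyp3a41b. Several of these promoters are near copies, such as those of Cyp3a41a and Cyp3a41b and those of Cyp2c40, Cyp2c68 and Cyp2c69, so they are not 10 independent matches. Of these 10 genes, Cyp2c65, Cyp2c68 and Cyp2c69 are among the 25 named, and the other 7 were under a mean of 1 TPM in every group. The TATA box was held by 36.1% of P450 promoters and 12.4% of all, the nuclear receptor half-site by 23.6% and 14.02% (but by only 1 of the 25 promoters of named genes, that of Cyp2f2), the HNF1 half-site by 13.9% and 6.43%, and the aryl hydrocarbon receptor core by 18.1% and 28.2%. Cyp1a1 held the last of these 54 bases before its start while its RNA was at most 0.1799 TPM as deposited. A match says only that these letters are there.

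The levels of the 12 highest genes follow, in order of role, beginning with the Cyp2c genes, which act as epoxygenases and hydroxylases of arachidonic acid among other substrates. Cyp2c55 (chr19:39007019-39042693, GRCm38), an arachidonic acid hydroxylase known from the colon, was the highest P450 gene. On water, Cyp2c55 had 216, 145, 321 and 133 TPM in the controls (204 ± 85.99, SD, n = 4) and 161, 149, 148, 210.4 and 129 in the labelled knockouts (159.6 ± 30.6, n = 5). After DSS it had 177, 70.9 and 86.9 TPM in the controls (112 ± 57.4, n = 3) and 18.5, 298, 128 and 61.6 in the labelled knockouts (127 ± 123, n = 4). The DSS range spanned that of the water mice on both sides in the labelled knockout group, so the groups overlapped, and the difference of mean log2(TPM + 1) was −0.89 in the controls and −0.94 in the labelled knockouts. The latter was −0.24 without DSS knockout replicate 1 and −1.55 without DSS knockout replicate 2, and the group mean was 1.26-fold lower. Cyp2c55 made up 11.1% of the P450 TPM in DSS knockout replicate 1 and 58.8% in replicate 2. The sum of the surface colonocyte markers moved in the same order at the top. It was 827, 643 and 591 TPM in the 3 DSS libraries with most Cyp2c55 (298, 177 and 128 TPM). The other 4 had 374 to 446. Not every marker followed the sum. Among DSS libraries, Car4 was highest in control replicate 3 (118 TPM, against 43.6 in knockout replicate 2). Aqp8 was highest in knockout replicate 4 (2.47 TPM) and at 0 in control replicate 1. The part of surface colonocytes in the Cyp2c55 result was not tested.

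Cyp2c65, a neighbour of Cyp2c55 found in the gut, showed the same spread within DSS. Cyp2c65 was at 21.7, 7.17, 18.1 and 8.88 TPM in the water controls (13.9 ± 7.03, SD, n = 4) and at 11.3, 10.7, 6.93, 9.95 and 15.7 in the water labelled knockouts (10.9 ± 3.16, n = 5). DSS controls had 26.3, 16.4 and 6.74 TPM (16.5 ± 9.79, n = 3), and DSS labelled knockouts had 9.59, 41.4, 26.3 and 14.1 (22.9 ± 14.3, n = 4). All groups overlapped, with DSS minus water differences of 0.18 in the controls and 0.84 in the labelled knockouts. The sign in the controls rested on single mice, with −0.23 without DSS control replicate 1, −0.07 without water control replicate 2 and 0.68 without DSS control replicate 3. DSS knockout replicate 2 was the highest of all mice for Cyp2c65 and the highest DSS mouse for Cyp2c55. Cyp2c68 had much tighter values. The 4 water controls had 51.97, 51.4, 64.4 and 50.8 TPM of Cyp2c68 (54.6 ± 6.53, SD) and the 5 water labelled knockouts 50.5, 48.4, 53.2, 55.7 and 47.1 (50.98 ± 3.49). Those given DSS had 34.003, 24.4 and 28.1 TPM (3 controls, 28.8 ± 4.84) and 18.3, 21.4, 22.7 and 16.7 (4 labelled knockouts, 19.8 ± 2.78). Every DSS mouse was below every water mouse. The level was 1.895-fold lower after DSS in the controls and 2.58-fold lower in the labelled knockouts, as ratios of group means. Its near copy Cyp2c69 was at 4.82, 3.22, 4.83 and 4.105 TPM in the water controls and 0.153, 0.453 and 1.34 in the DSS controls. The labelled knockouts had 4.298, 4.64, 1.61, 4.71 and 2.78 TPM on water and 0.217, 1.07, 0.682 and 0.308 after DSS. Neither genotype overlapped (6.55-fold lower in the controls and 6.34-fold in the labelled knockouts). The 2 share reads, so their changes are not separate observations.

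The Cyp2d genes are the relatives of the human drug-metabolising CYP2D6. Cyp2d34 was the highest of them. On water, Cyp2d34 had 53.5, 82.8, 126 and 114 TPM in the controls (94.1 ± 32.6, SD, n = 4) and 84.3, 81.1, 74.2, 142 and 75.2 in the labelled knockouts (91.4 ± 28.7, n = 5). After DSS it had 30.2, 20.4 and 55.2 TPM in the controls (35.3 ± 17.98, n = 3) and 12.1, 19.8, 19.02 and 20.2 in the labelled knockouts (17.8 ± 3.83, n = 4). After DSS the labelled knockouts lay below all 5 of their water counterparts. In the controls DSS replicate 3 lay above 1 water mouse, so these groups overlapped. Cyp2d12 had a wide spread. Cyp2d12 was at 7.92, 30.1, 37.8 and 29.7 TPM in the water controls (26.4 ± 12.9, SD, n = 4) and at 19.5, 13.9, 2.68, 37.2 and 12.4 in the water labelled knockouts (17.1 ± 12.7, n = 5). DSS controls had 1.51, 1.36 and 13.5 TPM (5.46 ± 6.98, n = 3), and DSS labelled knockouts had 0.408, 4.31e-05, 1.16 and 0.486 (0.515 ± 0.483, n = 4). In the controls DSS replicate 3 again lay above the lowest water mouse, here replicate 1, whereas in the labelled knockouts all DSS values lay under the lowest water value. The 33.3-fold ratio of means in that group rests on a DSS mean of 0.515 TPM. The listed transcript of Cyp2d12 also shares 99.9% of its windows with other isoforms of its gene.

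Cyp2d10 was at 11.96, 12.6, 12.6 and 11.3 TPM in the water controls and 5.27, 4.22 and 5.88 in the DSS controls, 2.36-fold lower with no overlap. In the labelled knockouts it was at 6.25 to 19.2 TPM on water and 1.28 to 5.92 after DSS. These groups lay apart by a small gap after rescaling and overlapped as deposited. Cyp2d22 was at 3.59, 6.15, 9.96 and 4.19 TPM in the water controls and 2.61, 0.963 and 3.45 in the DSS controls. Its range in labelled knockouts was 3.77 to 8.63 on water and 0.669 to 1.31 after DSS. After rescaling neither genotype overlapped for Cyp2d22, but the controls did as deposited. Not all of the cluster followed: Cyp2d26 was at 7.23 ± 2.44 TPM in the water controls and 6.84 ± 1.02 in the DSS controls, and at 7.18 to 9.67 in the water labelled knockouts and 6.65 to 8.05 in 3 DSS labelled knockouts, with replicate 1 listed at 0. The transcript of Cyp2d26 that is listed shares all of its windows with other isoforms of its gene, and a value of 0 there can be a failed estimate. Cyp2d40 was at 3.22 ± 1.12 TPM in the water controls and 1.15 ± 0.325 in the DSS controls. Cyp2d9, among the genes with the largest positive differences in the controls (0.32), was at 2.43, 0, 2.497 and 0 TPM in the water controls and 1.84, 1.39 and 0.861 in the DSS controls. Its labelled knockouts had 0.946, 0, 0, 7.37 and 3.59 TPM on water and 0, 0.953, 0 and 0.382 after DSS, so values of 0 stood in both treatments and the groups overlapped.

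Outside these clusters, Cyp2s1, an extrahepatic enzyme of epithelia that the aryl hydrocarbon receptor can induce, was as follows. The 4 water controls had 26.5, 27.3, 39.4 and 20.6 TPM of Cyp2s1 (28.4 ± 7.87, SD) and the 5 water labelled knockouts 35.7, 21.1, 18.7, 28.3 and 30.2 (26.8 ± 6.89). Those given DSS had 13.9, 12.1 and 20.2 TPM (3 controls, 15.4 ± 4.25) and 10.1, 13.1, 11.5 and 9.76 (4 labelled knockouts, 11.1 ± 1.51). After rescaling all DSS values lay below all water values within each genotype, with differences of −0.84 and −1.17 on the log2 scale. Of all genes, 14.2% in the controls and 18.1% in the labelled knockouts were lower without overlap. In the controls the gap was small (20.2 against 20.6 TPM), and as deposited DSS control replicate 3 lay above water control replicate 4. Cyp2f2, best known for activating naphthalene in lung, was at 15.7, 13.7, 11.5 and 6.24 TPM in the water controls and 2.601, 1.52 and 8.93 in the DSS controls, the last of which overlapped with water. Labelled knockouts had Cyp2f2 at 8.28 to 14.7 TPM on water and 1.61 to 2.71 after DSS, 5.66-fold lower with no overlap.

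Cyp2j6, an epoxygenase of arachidonic and linoleic acid, had its highest values after DSS. On water, Cyp2j6 had 12.7, 14.998, 14.3 and 12.1 TPM in the controls (13.5 ± 1.36, SD, n = 4) and 15.04, 14.1, 13.4, 11.3 and 13.9 in the labelled knockouts (13.6 ± 1.39, n = 5). After DSS it had 17.4, 21.1 and 14.03 TPM in the controls (17.5 ± 3.55, n = 3) and 19.7, 21.7, 21.5 and 16.8 in the labelled knockouts (19.9 ± 2.28, n = 4). The labelled knockouts did not overlap between treatments, and in the controls DSS replicate 3 lay within the water range. The differences were 0.34 and 0.52. Cyp3a13, the intestinal member of the drug-oxidising Cyp3a subfamily, had a wide spread in the DSS controls. Cyp3a13 was at 17.3, 15.9, 18.9 and 21.2 TPM in the water controls (18.3 ± 2.27, SD, n = 4) and at 16.9, 17.9, 13.03, 13.6 and 18.6 in the water labelled knockouts (16.02 ± 2.54, n = 5). DSS controls had 29.2, 14.1 and 6.94 TPM (16.8 ± 11.3, n = 3), and DSS labelled knockouts had 11.1, 13.8, 9.4005 and 11.6 (11.5 ± 1.83, n = 4). The DSS controls lay on both sides of the water controls, and the labelled knockouts overlapped as well.

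The Cyp4f genes hydroxylate leukotriene B4 and long-chain fatty acids at the chain's end. Cyp4f40 was the member with the largest positive difference in the controls. The 4 water controls had 11.8, 11.3, 17.3 and 11.4 TPM of Cyp4f40 (12.95 ± 2.88, SD) and the 5 water labelled knockouts 10.7, 10.03, 13.5, 13.6 and 14.5 (12.5 ± 1.995). Those given DSS had 23.3, 21.2 and 25.7 TPM (3 controls, 23.4 ± 2.26) and 30.3, 18.6, 20.02 and 16.2 (4 labelled knockouts, 21.3 ± 6.196). Every DSS mouse was above every water mouse of its genotype, 1.81-fold higher in the controls and 1.704-fold in the labelled knockouts, while 1 DSS labelled knockout lay below the highest water control. Cyp4f14, a leukotriene B4 hydroxylase, overlapped between the treatments. On water, Cyp4f14 had 22.9, 12.9, 24.7 and 25.5 TPM in the controls (21.5 ± 5.82, SD, n = 4) and 23.7, 19.4, 15.3, 17.4 and 24.3 in the labelled knockouts (19.999 ± 3.92, n = 5). After DSS it had 23.1, 14.1 and 12.1 TPM in the controls (16.4 ± 5.88, n = 3) and 12.8, 15.9, 13.2 and 12.3 in the labelled knockouts (13.5 ± 1.604, n = 4). Its differences were −0.37 in the controls and −0.52 in the labelled knockouts.

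Cyp4f13 and Cyp4f16 differed little between treatments in the controls and more in the labelled knockouts. Cyp4f13 was at 11.1, 15.3, 16.4 and 12.7 TPM in the water controls (13.9 ± 2.42, SD, n = 4) and at 23.5, 12.4, 17.3, 23.2 and 18.1 in the water labelled knockouts (18.9 ± 4.63, n = 5). DSS controls had 11.6, 8.91 and 14.9 TPM (11.8 ± 3.005, n = 3), and DSS labelled knockouts had 6.89, 8.95, 4.53 and 7.58 (6.99 ± 1.85, n = 4). For Cyp4f13 the labelled knockouts had no overlap (2.705-fold lower after DSS), and the controls overlapped. The 4 water controls had 21.2, 7.19, 16.9 and 6.31 TPM of Cyp4f16 (12.9 ± 7.33, SD) and the 5 water labelled knockouts 19.1, 19.7, 16.9, 28.1 and 16.001 (19.97 ± 4.78). Those given DSS had 10.6, 12.97 and 11.4 TPM (3 controls, 11.6 ± 1.22) and 6.34, 9.85, 10.1 and 10.4 (4 labelled knockouts, 9.18 ± 1.91). For Cyp4f16 both water controls of cage a (replicates 1 and 3) were high and both of cage b were low, and the DSS controls lay between them. The water labelled knockouts did not follow this, with 19.1 and 19.7 TPM in cage a and 16.9, 28.1 and 16.001 in cage b. In the labelled knockouts the Cyp4f16 groups lay apart, 2.17-fold lower after DSS. Cyp4f17 had at most 2.06 TPM in any mouse.

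Cyp4f18, a leukotriene B4 hydroxylase described in neutrophils, was at 11.8, 6.19, 5.97 and 6.92 TPM in the water controls and 5.41, 9.49, 7.47, 16.2 and 8.44 in the water labelled knockouts. After DSS it was at 3.85, 0.579 and 0.851 TPM in the controls and 0.412, 0.876, 0.527 and 0.653 in the labelled knockouts. Neither genotype overlapped between treatments. Across treatments Cyp4f18 moved with the leukocyte markers, of which Lyz2 was at 513 to 1171 TPM on water and 9.02 to 26.6 after DSS. The neutrophil markers were mixed, with S100a8 and S100a9 higher after DSS, Csf3r overlapping and Mmp9 lower after DSS within the labelled knockouts. Among the DSS mice, the library with most Cyp4f18 (control replicate 1, 3.85 TPM) also had the most neutrophil marker RNA (1612 TPM) and the most Csf3r (9.26 TPM). The part of either cell type in the result was not tested. Cyp4v3, the mouse counterpart of a fatty acid hydroxylase mutated in a human retinal dystrophy, was at 4.72 to 6.14 TPM in the water controls and 1.46 to 2.26 in the DSS controls, and at 4.35 to 6.65 and 1.49 to 3.23 in the labelled knockouts, with no overlap in either. The remaining 3 were near the limit of the rule: Cyp2j9 had 0.698 to 2.04 TPM in the water controls and 0.702 to 1.34 in the DSS controls, Cyp4b1 was at most 2.06 TPM and Cyp2w1 at most 1.87 TPM in any mouse.

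**Figure D3:**
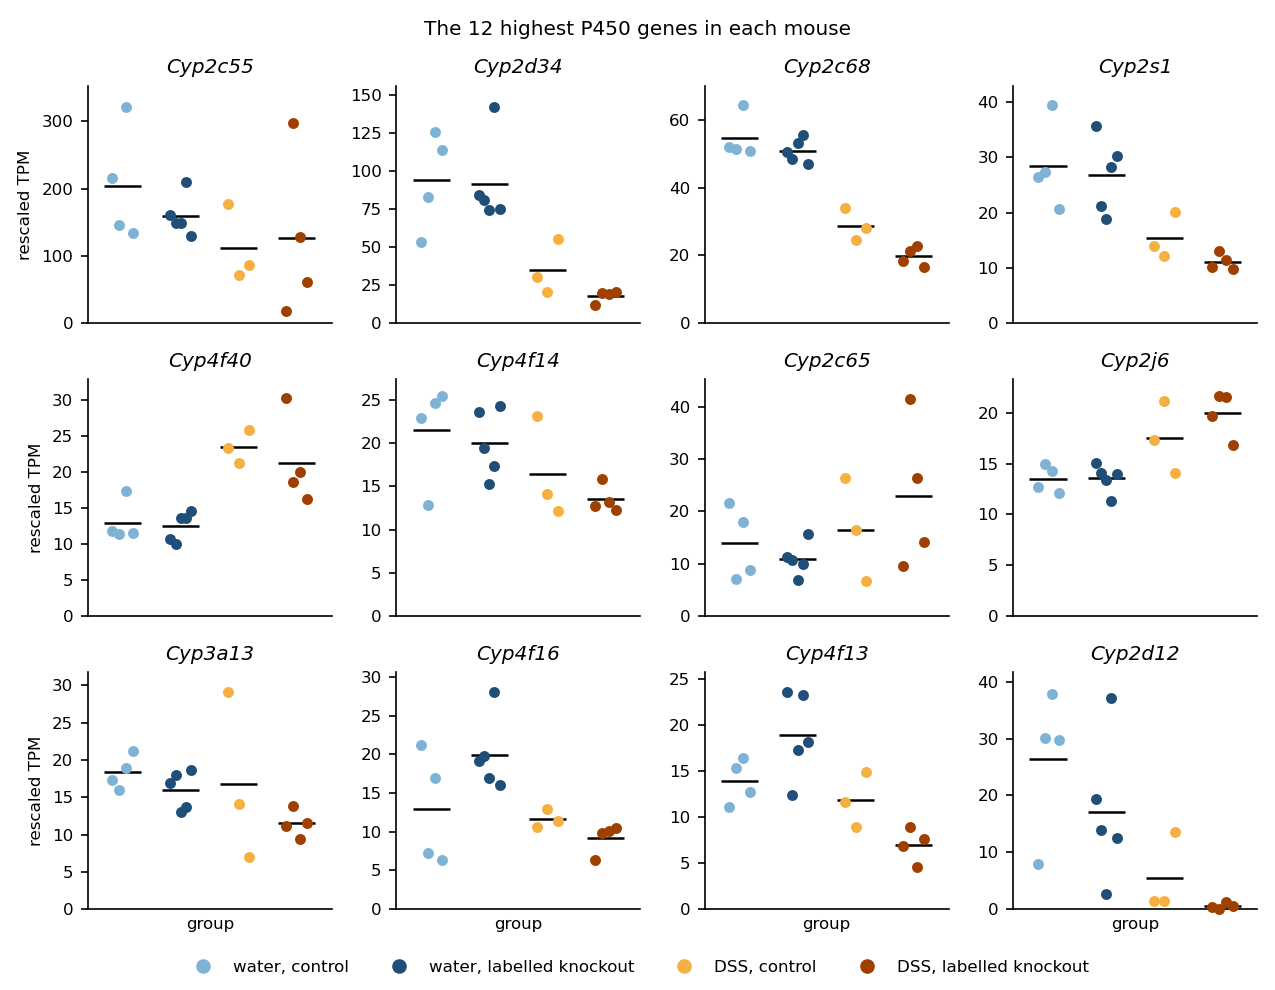
Each panel gives the rescaled TPM (vertical axis, starting at 0) of 1 of the 12 highest P450 genes, with a point for each mouse and a line at the mean of each of the 4 groups. For Cyp2c68 all 7 DSS mice sit between 16.7 and 34.0 TPM, below all 9 water mice, while for Cyp2c55 the DSS mice run from 18.5 to 298 TPM.

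Whether injury went with other P450 levels could not be tested, since each treatment has its own table and its own cages, so it is described by levels. A gene was counted where the mice of the treatments did not overlap and the means of log2(TPM + 1) lay at least 1 apart. In the controls 23 of the 80 genes passed the filter of a mean of 1 TPM over the mice compared. None of them was counted as higher (1.71% of all 11241 genes were) and 5 were counted as lower (8.33% of all): Cyp2c69, Cyp4f18, Cyp4v3, Cyp2d10 and Cyp2d22. Cyp2c69 had a DSS mean under 1 TPM and passed only through its water level, as did Cyp2c69, Cyp2d9, Cyp2d12, Cyp2d40, Cyp4f17 and Cyp4f18 in the labelled knockouts, so nothing is drawn from the share of the genes that passed. In the labelled knockouts 23 genes passed, with 0 higher (3.73% of all 11138) and 12 lower (9.07%): the same 5 and Cyp2d12, Cyp2d34, Cyp2f2, Cyp2c68, Cyp4f13, Cyp2s1 and Cyp4f16. Without the step of 1, 8 genes were lower and 1 was higher with no overlap in the controls (14.2% and 10.6% of all genes), and 12 and 2 in the labelled knockouts (18.1% and 17.4%). Whether the genotypes differ in this was not tested.

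The counts moved with the scaling and with single mice. In the tables as deposited, where the median of all genes lay 0.32 higher after DSS in the controls and 0.31 higher in the labelled knockouts, 2 genes were lower in the controls (Cyp2c69 and Cyp4f18, 6.04% of all) and 1 was higher (Cyp4f40, 6.03% of all). In the labelled knockouts 6 were lower (6.48% of all) and 1 was higher (again Cyp4f40, 10.5% of all). Over all genes, 680 were higher and 681 lower in the controls as deposited, against 192 and 936 after rescaling, and 1173 and 725 against 415 and 1010 in the labelled knockouts. In the controls the count of lower genes was 9 without DSS control replicate 3, which then included Cyp2d12, Cyp2d34, Cyp2f2 and Cyp2s1, and 8 without water control replicate 1. DSS control replicate 3 came from cage c, and its goblet and deep crypt secretory markers, at 3914 TPM, were within the range of the water controls, where the other DSS controls had 1951 and 2129. That part in the result was not tested. With females alone on both sides, 6 genes were lower in the controls and 13 in the labelled knockouts.

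**Figure D4:**
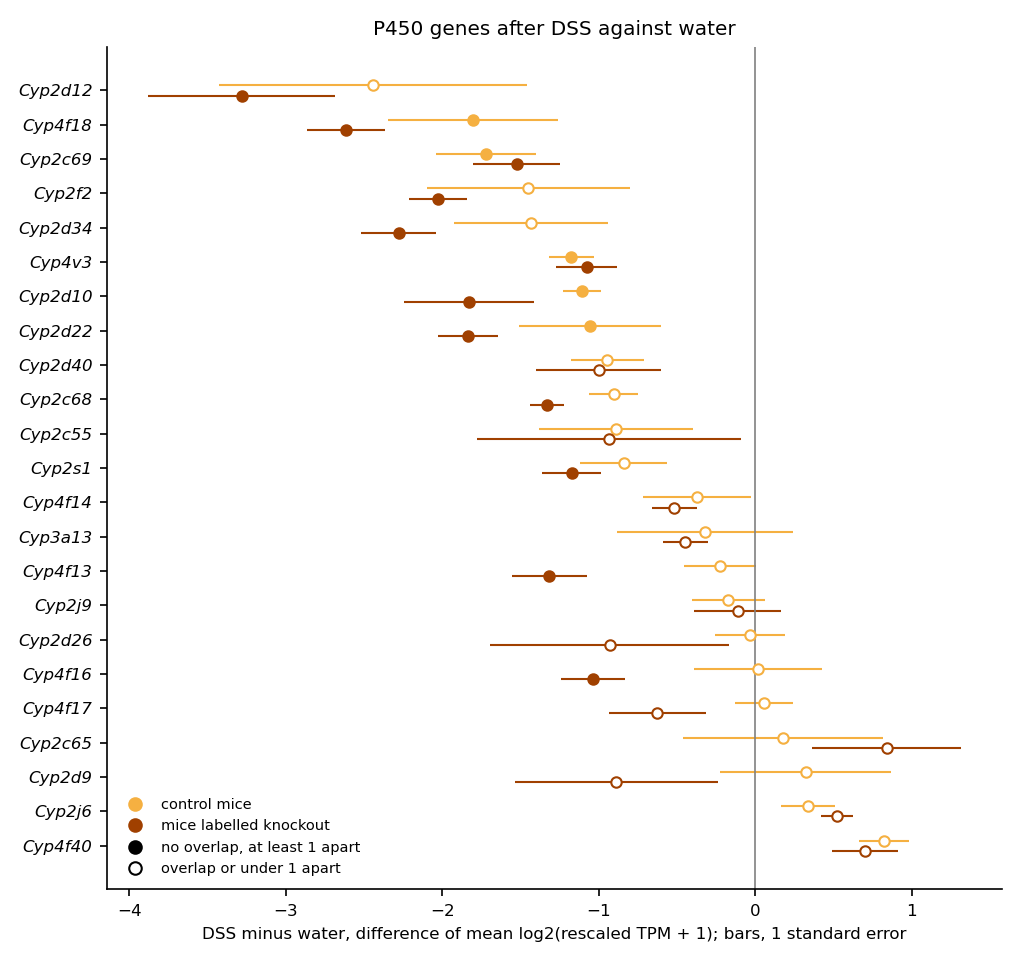
For each of the 23 P450 genes tested, points give the DSS minus water difference of mean log2(rescaled TPM + 1) (horizontal axis) for both genotypes, with bars of 1 standard error, and filled points mark genes whose groups do not overlap and lie at least 1 apart. The differences run from −2.44 (Cyp2d12) to 0.82 (Cyp4f40) in the controls and from −3.28 (Cyp2d12) to 0.84 (Cyp2c65) in the labelled knockouts.

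The study asked what loss of TNF receptor 2 from epithelium does, so the genotypes of each treatment were set against each other with limma, on log2(deposited TPM + 1), with Benjamini-Hochberg adjustment over all genes tested. After DSS, 20 of the 80 genes had a mean of 1 TPM or more. None was called at an adjusted p under 0.05, where 1 of all 10899 genes was (0.00918%). The median log2 difference of the 20 was −0.37, while that of all genes was 0.02. These 20 come from the same mice and in part share reads, so they are not separate observations. Cyp2d12, Cyp4b1 and Cyp4f18 averaged under 1 TPM in the labelled knockouts and passed the filter only through the controls. Nothing is therefore drawn from this median or from the counts that follow. At an unadjusted p under 0.05 there were 4, all lower: Cyp2c68, Cyp4f13, Cyp2d12 and Cyp2d34 (1.21% of all genes were lower at this level, and 2.65% had such a p in either direction). The difference was −0.51 (95% interval −0.90 to −0.12) for Cyp2c68, −0.69 (95% interval −1.301 to −0.07) for Cyp4f13, −1.698 (95% interval −3.32 to −0.08) for Cyp2d12 and −0.85 (95% interval −1.68 to −0.03) for Cyp2d34, each with an adjusted p of 1.00. Cyp2c68 and Cyp2d12 had no overlap between the genotypes (1.55% of all genes were lower in this way). The Cyp2d and Cyp2c genes share reads within their subfamilies, and the DSS control with the highest Cyp2d12 and Cyp2d34 was replicate 3. Without it the count was 2, and without any single mouse the number lay between 1 (without DSS control replicate 1 or DSS knockout replicate 1) and 6 (without DSS control replicate 2), with 2 also without DSS knockout replicate 2 or 3. The 5 named genes that were not tested were Cyp2c69, Cyp2d9, Cyp2d40, Cyp2w1 and Cyp4f17.

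The interval was wide for the gene with the highest level: Cyp2c55 differed by −0.32 (95% interval −2.29 to 1.65) after DSS. It was narrow for Cyp2j6, at 0.20 (95% interval −0.16 to 0.56), and for Cyp2c68. Goblet and deep crypt secretory markers were also lower in the labelled knockouts after DSS, with a median of −0.90 over the 6 genes and 0 called. Their part in the differences was not tested.

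On water 23 of the 80 genes were tested and none was called, where 1 of 11046 genes was (0.00905%). None had an unadjusted p under 0.05 either, against 5.28% of all genes. The genes that limma ranked first were Cyp4f16, at 0.73 (95% interval −0.04 to 1.497), Cyp4f13, at 0.41 (95% interval −0.04 to 0.85), and Cyp3a13, at −0.18 (95% interval −0.49 to 0.12), each with an adjusted p of 0.865. Cyp4f16 thus had the larger point estimate in the labelled knockouts, but 2 of the 4 controls lay among them. Cyp2c68 had a narrow interval, −0.09 (95% interval −0.31 to 0.14), and so did Cyp2j6, 0.01 (95% interval −0.25 to 0.27). No named gene separated the genotypes without overlap (1.55% of all genes did).

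**Figure D5:**
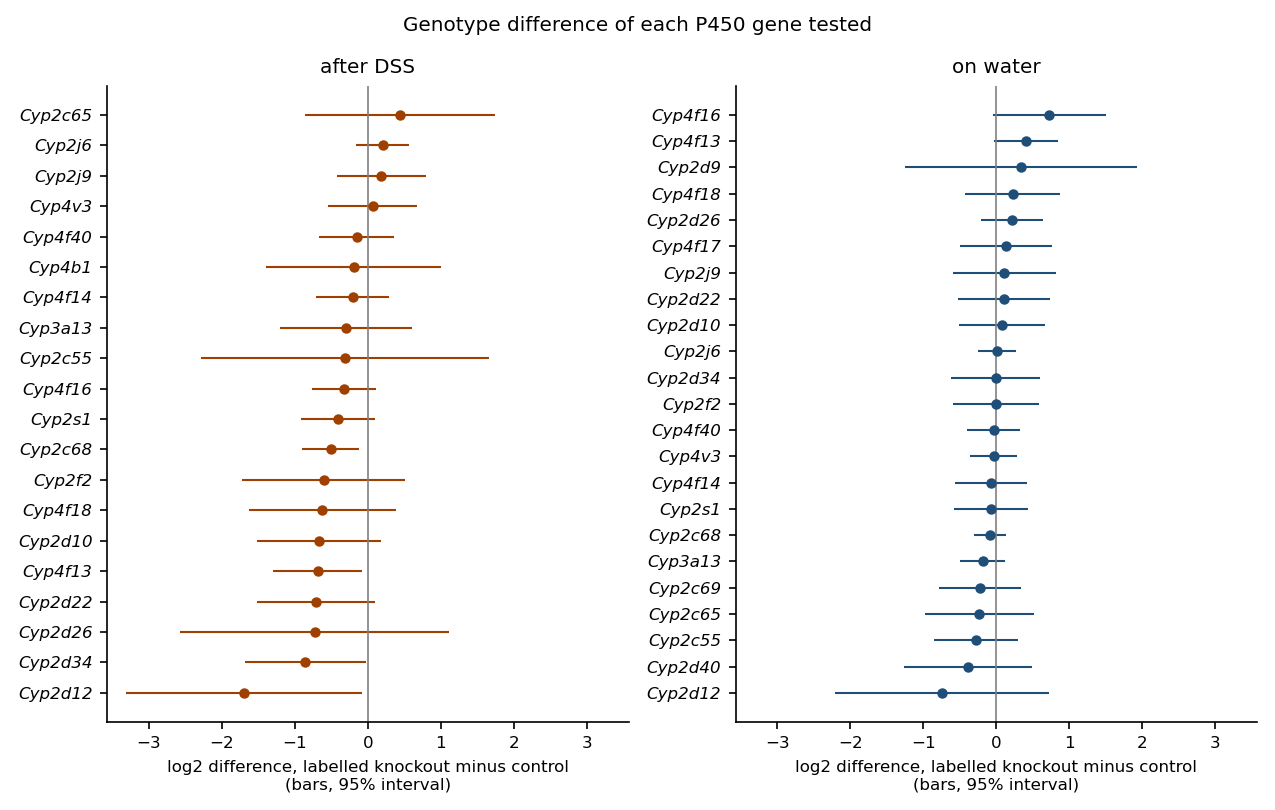
Points give the limma log2 difference between labelled knockouts and controls (horizontal axis, negative where lower in the labelled knockout) with its 95% interval for each P450 gene tested, after DSS in the left panel (20 genes) and on water in the right panel (23 genes). After DSS the differences run from −1.698 (Cyp2d12) to 0.44 (Cyp2c65), and on water from −0.75 (Cyp2d12) to 0.73 (Cyp4f16).

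Many P450 genes of families 2 to 4 differ between the sexes in mouse liver, so the males of cage a were also compared with the females of cage b on water, with genotype as a covariate. Of the 23 genes tested none was called and none had an unadjusted p under 0.05, where 4 of 11046 genes were called (0.0362%) and 6.83% had such a p. The genes that limma ranked first were Cyp2c65, at 0.60 (95% interval −0.05 to 1.25), Cyp4f16, at 0.61 (95% interval −0.06 to 1.29), and Cyp2d26, at 0.33 (95% interval −0.05 to 0.70), all higher in the males and each with an adjusted p of 0.755. None separated the cages without overlap (1.79% of all genes did). Cyp2c55 differed by 0.40 (95% interval −0.13 to 0.94). Cyp2d9, a male-biased gene of the liver, differed by 0.11 (95% interval −1.61 to 1.83), an interval too wide to show a difference of either sign.

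The partners of these enzymes were followed in lists. Of the 7 electron transfer partners, 1 was counted as lower after DSS in the controls (8.33% of all genes were) and none in the labelled knockouts (9.07% of all), so these counts are near the shares of all genes. Por, the oxidoreductase that all these enzymes depend on, was at 36.2 ± 7.65 TPM in the water controls and 22.4 ± 6.08 in the DSS controls, and at 30.1 ± 10.6 and 23.9 ± 3.99 in the labelled knockouts, with overlap in both. Cyb5b, a cytochrome b5, was higher after DSS with no overlap, at 52.7 ± 2.25 against 80.1 ± 11.01 TPM in the controls and 57.95 ± 8.503 against 81.5 ± 2.36 in the labelled knockouts. Of all genes, 10.6% in the controls and 17.4% in the labelled knockouts were higher without overlap. The counted gene was Cyb5r1, a cytochrome b5 reductase, at 3.39 to 6.601 TPM in the water controls, 0.312 to 2.11 in the DSS controls and 4.25 to 7.05 in the DSS labelled knockouts. Its genotype difference after DSS was 1.85 (95% interval 1.01 to 2.69), with an adjusted p of 1.00.

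Of the 15 receptors that control P450 genes, 14 were tested, with 2 lower and 0 higher after DSS in the controls (8.33% and 1.71% of all genes) and 1 lower and 1 higher in the labelled knockouts (9.07% and 3.73% of all), which is near those shares. The pregnane X receptor gene Nr1i2 was level, at 22.1 ± 1.803 TPM in the water controls and 21.4 ± 4.43 in the DSS controls, and Nr1i3 was at most 1.27 TPM in any mouse. Hnf4a, a regulator of the intestinal epithelium, was at 64.02 to 137 TPM in the water controls and 6.898 to 43.2 in the DSS controls. In the labelled knockouts it was at 27.8 to 103 TPM on water and 61.6 to 79.8 after DSS. The genotypes did not overlap after DSS, with a difference of 1.95 (95% interval 0.73 to 3.17) and an adjusted p of 1.00. Nr1h2, a liver X receptor, was lower after DSS than on water in both genotypes, with differences of −1.26 and −1.14. Within the labelled knockouts Hnf4g was higher after DSS than on water, by 1.63.

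Of 5 other targets of the aryl hydrocarbon receptor 3 were tested. Nqo1, a quinone reductase that is also an NRF2 target, was counted as higher after DSS in both genotypes, at 15.4 ± 5.56 against 33.3 ± 3.41 TPM in the controls. Of all genes, 1.71% were counted as higher in the controls and 3.73% in the labelled knockouts. Ugt1a6a was higher without overlap but by less than 1 (0.64 and 0.62), where 10.6% and 17.4% of all genes were higher without overlap. Tiparp differed by −0.58 and 0.04, and Ahrr and Aldh3a1 had group means of about 1 TPM or less. Of 9 listed genes of haem synthesis and breakdown, 1 was counted as lower in the controls (8.33% of all genes were) and 2 in the labelled knockouts (9.07% of all). Hmox1, the inducible haem oxygenase, was lower in both genotypes, at 54.95 to 97.1 against 4.15 to 10.6 TPM in the controls and 35.7 to 114 against 5.53 to 8.47 in the labelled knockouts. Macrophages also express Hmox1, and it moved with the leukocyte markers given above. That part in the result was not tested. Urod, of haem synthesis, was lower after DSS than on water within the labelled knockouts, with a difference of −1.16. Of the epoxide hydrolases, which open the epoxides that P450 enzymes make, Ephx1 was at 14.2 ± 3.58 against 6.85 ± 2.07 TPM in the controls and 13.6 ± 3.504 against 5.64 ± 1.11 in the labelled knockouts. No gene of these 5 lists was called between the genotypes in either treatment.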

How the data were processed

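RNA of EpCAM+ distal colon cells from 16 separate mice had been sequenced as stranded polyA libraries of single reads of 75 bases. The authors estimated abundances with kallisto on mm10 transcripts, kept APPRIS principal isoforms and deposited TPM in a table for each treatment, each scaled on its own. The fold changes, p-values and q-values of sleuth in these tables are the authors' own comparisons and were not used. Since TPM keeps no read count, the depth per mouse is unknown and no counting interval can be given.

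Of 29373 lines a table, 385 repeats were dropped, which left 28988 transcripts, and TPM were summed per gene symbol. Genotypes were compared within a table with limma 3.58.1 (trend, R 4.3.3) on log2(TPM + 1) for genes that averaged 1 TPM or more over the mice compared. P-values were adjusted by Benjamini-Hochberg over all these genes, with a threshold of 0.05, and the cage comparison had genotype as a covariate. The fit was tested on simulated data with known changes. DSS and water were compared by levels only, after median-of-ratios rescaling, in Python 3.11.15 (numpy 2.4.6, pandas 2.3.3, matplotlib 3.10.9).

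Genes that averaged 1 TPM or more in a group were named, with values mouse by mouse for the 12 highest, for those called and for the 3 with the largest difference in each direction between DSS and water controls, and with the 3 smallest p-values of each limma comparison. The P450 genes and all lists were chosen with earlier results of these data known. Alternatives were the pseudocount (0.1), the filter (none or 5 TPM), the scaling, the replicate block, cage as a covariate, females alone and leaving out each mouse. The replicate numbers do not pair mice: the correlations of deviations of same-numbered mice were −0.20 to −0.02 after DSS and −0.08 to 0.09 on water.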

Additional observations from a re-analysis of the deposited data

Results flagged for a closer look

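A mouse was marked where its gap to the nearest mouse of its group, on the log2(TPM + 1) scale, took up more of the group's range than Dixon's 95% limit allows. This was looked at in the groups of 4 or 5 mice, for 63 combinations of a P450 gene and a group, and 8 were marked (12.7%), where chance gives about 1 in 20 groups. The genes share reads and mice, so these are not 8 separate events.

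DSS knockout replicate 1 accounts for 3 of the 8. It was listed at 0 TPM for Cyp2d26, where the other 3 mice had 6.65 to 8.05, and it had 12.1 TPM of Cyp2d34 against 19.0 to 20.2 and 6.34 TPM of Cyp4f16 against 9.85 to 10.4. Among the water controls, replicate 3 was high for Cyp2c68 (64.4 TPM against 50.8 to 52.0) and for Cyp4f40 (17.3 against 11.3 to 11.8). Water control replicate 1 was low for Cyp2d12, at 7.92 TPM against 29.7 to 37.8, and water control replicate 2 for Cyp4f14, at 12.9 against 22.9 to 25.5. Water knockout replicate 4 was high for Cyp2d34, at 142 TPM against 74.2 to 84.3.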

How the results depend on the processing

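No P450 gene was called between the genotypes or cages under any alternative run. After DSS the count of P450 genes at an unadjusted p under 0.05 (4) was 1 to 6 with a mouse left out, and Cyp2c55 (−0.32) ran from −0.94 to 0.38, turning positive without DSS control replicate 1 (0.06) or DSS knockout replicate 1 (0.38). On water this count (0) was 1 with no filter or with cage as a covariate, and 0 to 2 with a mouse left out. Between cages (0) it was 1 with no filter or without the genotype covariate, and 0 to 3 with a mouse left out. With the replicate number as a block it was 3 after DSS and 0 on water, and the calls over all genes went from 1 to 0 in each. The block changed no P450 call. Lower after DSS in the controls (5) were 2 genes as deposited, 3 after quantile normalization, 2 among genes of at least 5 TPM and 4 to 9 with a mouse left out, and higher (0) was 1 as deposited. In the labelled knockouts, lower (12) were 6 as deposited and 10 to 14 with a mouse left out, and higher (0) was 1 as deposited. Fewer genes tested accounts for part of the count at 5 TPM, and otherwise the cause was not tested. No gene counted as lower reversed under any alternative run. With 3 to 5 mice a group and unknown depth, a gene that was not called is not thereby shown to be equal between the genotypes. The intervals give the range of differences that remain compatible with the data.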
